A study of Homo sapiens with 9 samples.

Results

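PC3 cells grown alone, the untreated PC3 group, make up 2 of the 9 Affymetrix Human Genome U133 Plus 2.0 arrays of a study on prostate cancer cells and osteoblasts. The arrays were chosen by their titles alone. PC3 is an established human cell line from a bone metastasis of a prostate carcinoma that grows without androgen. Untreated PC3 cells received fresh DMEM/F12 medium with penicillin and streptomycin and were harvested after 48 h, with no osteoblasts and no added protein. The other 7 arrays hold PC3 cells kept for the same 48 h in the same medium, with mouse osteoblasts (OB) on culture inserts placed into the wells. These are PC3 cells with osteoblasts of Sost knockout mice (OB SostKO, 2 arrays), with wild type osteoblasts and 100 ng/ml recombinant human DKK1 (OB WT + rhDKK1, 2 arrays) and with wild type osteoblasts and 100 ng/ml recombinant human SOST (OB WT + rhSOST, 3 arrays). All RNA was taken from the PC3 cells of 1 line, and the arrays of a group are named biological replicates in their titles, with no word on separate cultures. The p-values below therefore measure only the spread between these samples.

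Prostate epithelium has a luminal layer that secretes into the duct, a basal layer beneath it and scattered neuroendocrine cells. Carcinoma cells can keep the genes of 1 layer, lose them or add genes of mesenchymal cells, which migrate. In bone, tumor cells meet osteoblasts, which build matrix, and osteoclasts, which dissolve it, and the exchange runs through secreted cytokines, growth factors, Wnt ligands and proteases and their receptors. DKK1 and SOST are secreted Wnt inhibitors that bind the coreceptors LRP5 and LRP6.

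The values are log2 intensities made with RMA, a method that subtracts background, gives all arrays the same distribution and combines the probes of a set. Each of 19775 genes was read by its brightest probe set. Probe sets differ in how strongly they bind their target, so a value was read against the background of its array and against the same probe set on other arrays, not against the value of another single gene. A median over a list stands beside that of all genes as a description, and the count above background is the reading of the list. The background limit was the 95th percentile of 92 measured genes of tissues unlike prostate, such as liver, muscle, brain and retina. This limit was 6.80 on untreated array 1 and 6.65 on untreated array 2. Above it on both arrays lay 9889 genes, which is 50.0% of all genes, while 383 genes passed on 1 array and 9503 on neither. By construction a few of the reference genes themselves passed, so a value just above the limit was read with caution. Between the untreated arrays the median difference of a gene was 0.11 over all genes and 0.08 over those above background.

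**Figure D1:**
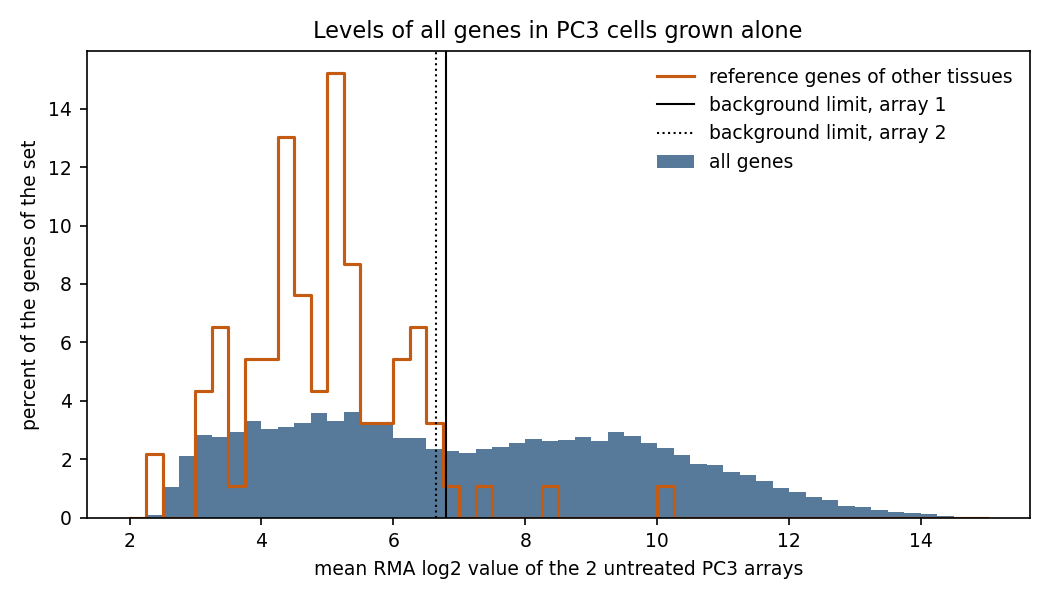
Distribution of the mean RMA log2 value of the 2 untreated PC3 arrays (x axis) in percent of the genes of the set (y axis), for all 19775 genes (bars) and for 92 measured reference genes of other tissues (line), with the background limit of each array as vertical lines at 6.80 and 6.65. The reference genes lie mostly left of the limits, and 50.0% of all genes lie to the right of both.

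Promoters give the levels a sequence context that the arrays did not use. A RefSeq promoter of GRCh38.p14 was matched by symbol for 15384 of the 19775 genes, and the 250 bases before the listed start were searched. The 7 promoters shown belong to genes that recur below: the Wnt inhibitors DKK1 and SOST, the chemokines CXCL8 and CXCL12, the luminal gene KLK3, and CTNNA1 and SIL1, which lie close together on chromosome 5. In each pair of Wnt inhibitors and of chemokines the first was above background and the second at background. Each is written 5′ to 3′ and ends at the base before the start, with CpG dinucleotides in capitals.
DKK1 promoter, chr10:52314031-52314280, plus strand: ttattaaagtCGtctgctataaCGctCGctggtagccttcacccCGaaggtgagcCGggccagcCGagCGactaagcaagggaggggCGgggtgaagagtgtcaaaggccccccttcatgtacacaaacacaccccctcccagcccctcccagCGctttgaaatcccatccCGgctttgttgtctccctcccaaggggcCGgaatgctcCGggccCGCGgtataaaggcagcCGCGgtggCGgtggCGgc
SOST promoter, chr17:43758792-43759041, minus strand: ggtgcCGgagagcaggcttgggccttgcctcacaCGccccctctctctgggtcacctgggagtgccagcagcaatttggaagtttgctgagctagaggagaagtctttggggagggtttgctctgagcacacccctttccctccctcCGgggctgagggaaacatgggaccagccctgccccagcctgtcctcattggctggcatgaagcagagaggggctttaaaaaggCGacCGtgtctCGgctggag
CXCL8 promoter, chr4:73740319-73740568, plus strand: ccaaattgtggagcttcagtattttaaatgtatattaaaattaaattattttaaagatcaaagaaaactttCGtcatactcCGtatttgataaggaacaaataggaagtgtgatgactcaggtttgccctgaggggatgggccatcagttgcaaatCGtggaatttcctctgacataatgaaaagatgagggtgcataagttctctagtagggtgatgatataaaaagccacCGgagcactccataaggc
CXCL12 promoter, chr10:44385098-44385347, minus strand: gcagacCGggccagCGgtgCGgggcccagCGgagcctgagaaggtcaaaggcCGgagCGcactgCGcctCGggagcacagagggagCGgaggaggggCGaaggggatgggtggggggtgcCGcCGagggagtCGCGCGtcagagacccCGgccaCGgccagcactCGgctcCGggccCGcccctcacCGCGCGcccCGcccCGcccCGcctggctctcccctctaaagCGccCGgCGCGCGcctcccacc
KLK3 promoter, chr19:50854665-50854914, plus strand: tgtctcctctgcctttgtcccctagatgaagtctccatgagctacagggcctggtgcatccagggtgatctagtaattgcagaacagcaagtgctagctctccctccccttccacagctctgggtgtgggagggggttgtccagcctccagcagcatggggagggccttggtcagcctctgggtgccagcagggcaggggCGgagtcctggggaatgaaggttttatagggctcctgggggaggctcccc
CTNNA1 promoter, chr5:138753175-138753424, plus strand: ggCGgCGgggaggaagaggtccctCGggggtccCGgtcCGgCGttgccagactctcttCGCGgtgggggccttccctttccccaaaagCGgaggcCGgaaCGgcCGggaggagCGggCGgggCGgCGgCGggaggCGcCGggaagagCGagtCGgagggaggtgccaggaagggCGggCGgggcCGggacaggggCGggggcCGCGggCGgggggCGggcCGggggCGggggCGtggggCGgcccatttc
SIL1 promoter, chr5:139198369-139198618, minus strand: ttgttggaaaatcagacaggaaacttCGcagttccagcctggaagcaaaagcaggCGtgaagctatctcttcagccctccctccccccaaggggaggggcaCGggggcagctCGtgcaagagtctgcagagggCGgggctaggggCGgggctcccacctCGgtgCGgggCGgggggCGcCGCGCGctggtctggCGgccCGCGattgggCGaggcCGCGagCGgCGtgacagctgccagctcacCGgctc
The promoter of DKK1 holds 18 CpG dinucleotides and the TATA-box letters TATAAA that begin 30 bases before the start, while that of SOST holds 6 CpG and no TATAAA. CXCL8 has 4 CpG and TATAAA from 31 bases before the start. CXCL12 has 31 CpG although the gene was at background, and so have CTNNA1 with 33 and SIL1 with 22. KLK3 has 1 CpG, and TATAAA in it stands on the opposite strand.

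Over all matched genes, promoters of genes above background held more CpG than those of genes at background. The median was 22 CpG in the 8274 promoters of genes above background on both arrays, 8 in the 6823 of genes at background and 11 in all 27305 promoters of the table. The letters TATAAA, on either strand, occurred in 4.82% of the first set, 12.6% of the second and 11.1% of all promoters. GGGCGG, the core of the site that Sp1 binds, occurred on either strand in 69.9%, 39.3% and 42.3%. A count of CpG did not mark off the brighter genes among those above background, since the median was 21 in the lowest of 4 equal classes by level and 22 in each of the other classes. For the secreted cytokines the CpG medians were low and close together, and the differences had the direction seen over all genes. The 13 promoters of cytokines above background had a median of 4 CpG and the 15 of cytokines at background had 3, and TATAAA occurred in 2 and 7 of them. For the receptor tyrosine kinases the CpG medians were 24 over 17 promoters and 17 over 19. Those of the mesenchymal genes also lay close together, 12 over 9 promoters and 12.5 over 6. These are descriptions of small sets, and no factor was measured at any of the promoters.

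PC3 cells grown alone carried most of the epithelial genes. Of 22 measured epithelial adhesion genes, 20 (90.9%, against 50.0% of all genes) were above background on both arrays, with a median of 10.48 against 6.83 for all genes. EPCAM, an epithelial adhesion molecule, had log2 values of 13.18 and 13.23 on arrays 1 and 2. CDH1, the E-cadherin of adherens junctions, had 11.80 and 11.85. ESRP1, an epithelial splicing regulator, had 11.39 and 11.51. The desmosome genes DSG2 (12.01 and 12.02) and DSP (11.13 and 11.02), the tight junction genes TJP1, OCLN, CLDN4 and CLDN7, and the transcription factors GRHL2 and OVOL1 were above background as well. MUC1, a membrane mucin, passed on array 2 alone (6.37 and 6.79) and ranged from 6.52 to 6.87 on the co-culture arrays.

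The exception was CTNNA1, α-catenin, which ties cadherin complexes to actin. CTNNA1 had 5.88 and 5.61, and all 5 of its probe sets were at background, with means between 2.81 and 5.75. On the 7 co-culture arrays CTNNA1 ranged from 5.44 to 5.90, and so overlapped the untreated arrays. Its partner CTNNB1, β-catenin, had 12.24 and 11.98 at the brightest of 3 probe sets. JUP, γ-catenin, had 9.41 and 9.47. Of the genes next to CTNNA1 in the order of RefSeq, chosen after its values were seen, ETF1, a translation release factor (11.44 and 11.38), and HSPA9, a mitochondrial chaperone (12.14 and 12.20), were above background on one side. LRRTM2, which lies within CTNNA1, had 2.91 and 2.96. SIL1, a cofactor of an endoplasmic reticulum chaperone, had 5.99 and 5.88 at its only probe set. Beyond SIL1, MATR3, a nuclear matrix protein, had 7.08 and 7.77 and PAIP2, a regulator of poly(A)-binding protein, had 11.50 and 11.31. The run of measured neighbours at background on both arrays thus held CTNNA1, LRRTM2 and SIL1. Further out on either side, EGR1 (4.53 and 4.19), SLC23A1 (3.21 and 3.16) and MZB1 (5.28 and 5.05) were at background on both arrays too. Over all genes 48.1% were at background on both arrays, so a short run is not read as a trait of this region.

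The luminal list was divided, with its keratins and transcription factors above background and 8 other genes, KLK2, ACP3, FOLH1, MSMB, PCA3, PSCA, TMEFF2 and TRPM8, at background on both arrays. Of 24 measured luminal prostate genes, 16 (66.7%) were above background, and of the 9 defining ones 6 were. KRT18 and KRT8, keratins of simple epithelia, had 13.07 and 13.23, and 12.10 and 12.02, each at a single probe set that can also match related sequences. KRT19 had 12.56 and 12.49. The luminal transcription factor FOXA1 had 9.63 and 9.73, and HOXB13, a homeobox factor of the prostate, had a mean of 9.09 ± 0.13 (SD, n = 2). SPDEF, an epithelial factor of the prostate, passed at all 5 of its probe sets (9.50 and 9.49 at the brightest). The membrane protein STEAP1 had 11.38 and 11.31.

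Genes of prostate secretion and of surface antigens lay on both sides of the limits. KLK4, a kallikrein, had 7.55 and 7.47 at 1 of 5 probe sets. SLC45A3, a membrane transporter, had 8.27 and 8.50 at 1 of 2, and STEAP2, a metalloreductase related to STEAP1, had 8.22 on both arrays at its only probe set. KLK3, which encodes prostate-specific antigen, had 7.34 and 6.93, just above the limits, at 1 of 3 probe sets, and that probe set can match related sequences. The other probe sets of KLK3 had means of 4.08 and 4.84. TMPRSS2, a membrane protease, had 7.27 and 6.92 at 1 of 4 probe sets. KLK3 and TMPRSS2 were each at background on 1 of the 7 co-culture arrays, where KLK3 ranged from 6.71 to 7.16 and TMPRSS2 from 6.79 to 7.06. KLK2, a related kallikrein, had 5.09 and 5.52. ACP3, prostatic acid phosphatase, had 4.89 and 4.49. FOLH1, prostate-specific membrane antigen, had 4.04 and 4.16, and MSMB, a secreted protein of the luminal layer, had 3.25 and 3.17.

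The basal list was divided, also among its keratins. Of 13 measured basal epithelial genes, 9 (69.2%) were above background. The basal keratins KRT5 (5.71 and 5.42) and KRT14 (3.95 and 3.71) and the related KRT16 (5.58 and 5.28) were at background on both arrays. KRT15, another basal keratin, had 8.15 and 8.22. CD44, a hyaluronan receptor, had 11.68 on both arrays and was above background at 8 of 13 probe sets. SFN, a 14-3-3 protein of epithelia, had 13.28 and 13.14. The laminin gene LAMB3 (12.17 and 12.18) and its receptor chains ITGA6 (11.24 and 11.17) and ITGB4 (10.60 and 10.68) were above background too.

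Neuroendocrine genes were rare. Of 16 measured, 3 (18.75%) were above background, and none of the 4 defining ones was. CHGA, chromogranin A of secretory granules, had 3.58 and 3.52. SYP, synaptophysin, had 5.44 and 5.56. NCAM1, a neural adhesion molecule, had 6.02 and 5.78 and none of its 7 probe sets passed. The 3 genes that passed were PEG10, a retrotransposon-derived gene (12.18 and 12.26), ENO2, the neuronal enolase (9.28 and 9.24), and FOXA2, a forkhead factor (8.07 and 8.19).

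Beside the epithelial genes stood a full set of defining mesenchymal genes. Of 21 measured mesenchymal genes, 14 (66.7%) were above background, and all 6 defining ones were. VIM, the intermediate filament of mesenchymal cells, had 12.89 and 12.93 at 1 of 2 probe sets. CDH2, N-cadherin, had 10.75 and 10.74. FN1, fibronectin, had 11.42 and 11.23 at the brightest of 7 probe sets, 4 of which passed. Of the transcription factors that repress epithelial genes, SNAI2 had 10.92 and 10.81, TWIST1 8.01 and 8.17, and ZEB1 8.03 and 7.93 at 1 of 4 probe sets. SNAI1 (5.42 and 5.39), TWIST2 (5.86 and 5.29) and ZEB2 (3.46 and 3.37) were at background. The smooth muscle actin ACTA2, the matrix protein SPARC, the crosslinking enzyme LOX and the homeobox factor PRRX1 were at background as well.

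Genes of other cell types served to check the label. None of 12 measured blood and immune cell genes passed, and their defining PTPRC, the pan-leukocyte surface protein, had 3.24 and 3.09. Of 10 endothelial genes 1 passed: PECAM1, an adhesion molecule of vessels, at 7.79 and 7.67, while CDH5 (3.72 and 3.69) and VWF (5.30 and 5.10) were at background. Of 14 fibroblast and stromal genes 3 passed, of which COL1A1, the chain of type I collagen, had 9.13 and 8.92 and COL6A3 had 11.59 and 11.45. COL1A2, the partner chain of COL1A1, had 4.82 and 4.54, and LUM and DCN, matrix proteoglycans, were at background. Of 12 osteoblast genes 2 passed, COL1A1 and RUNX2, the osteoblast transcription factor (8.91 and 8.87 at 1 of 6 probe sets). The later osteoblast factor SP7 (4.91 and 4.67), alkaline phosphatase ALPL (5.08 and 4.78) and IBSP, bone sialoprotein (5.05 and 5.04), were at background. The epithelial markers KRT8, KRT18, CDH1 and EPCAM were thus high on both arrays labelled PC3, and the defining genes of blood cells were at background.

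**Figure D2:**
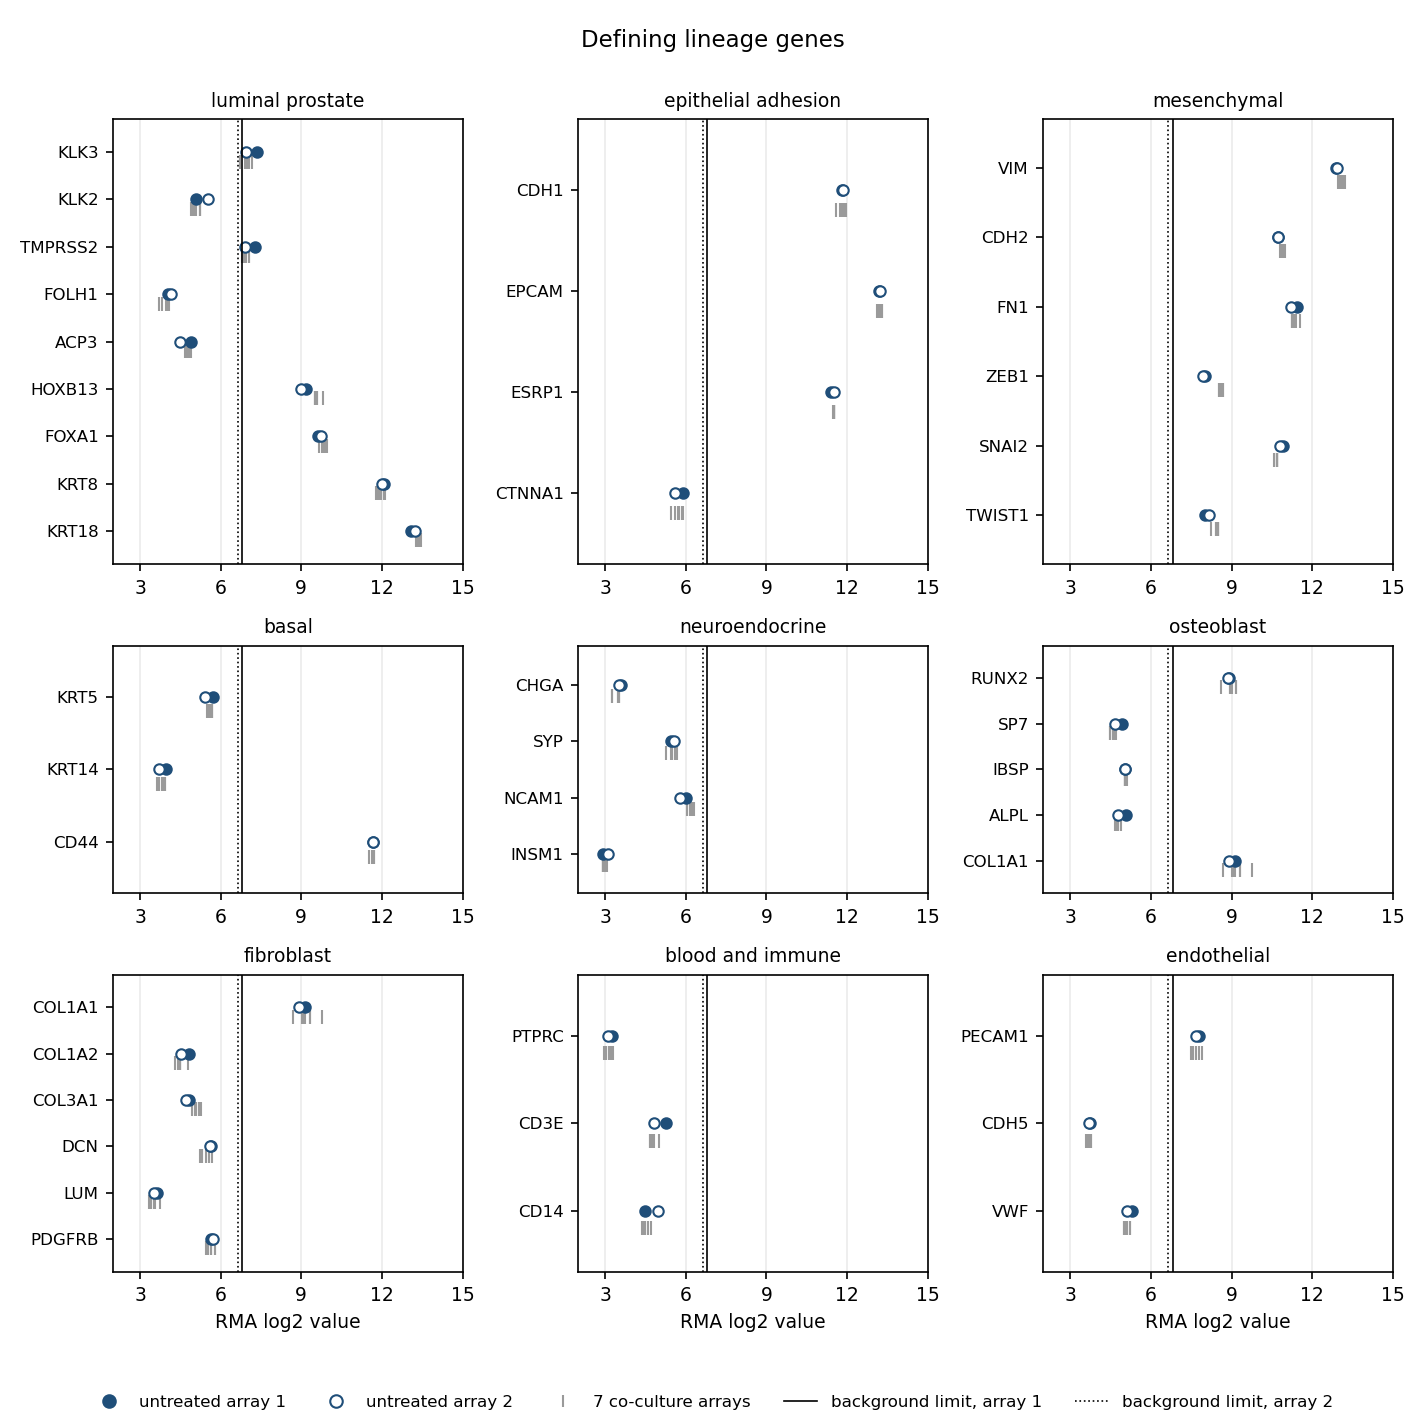
RMA log2 values (x axis) of the defining genes of each lineage list on untreated array 1 (filled circles) and array 2 (open circles) and on the 7 co-culture arrays (grey ticks), with the background limits of the untreated arrays as vertical lines. All 6 defining mesenchymal genes and KRT8, KRT18, CDH1 and EPCAM lie right of the limits, while the defining neuroendocrine and blood genes and CTNNA1 lie left of them.

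Of 5 measured tumor suppressor genes 4 were above background. The cell cycle inhibitors CDKN2A (10.36 and 10.27), CDKN1B (9.23 and 9.29) and CDKN1A (9.12 and 9.23) and the retinoblastoma gene RB1 (9.58 and 9.69) passed, and CTNNA1 did not. Transcript levels say nothing of whether the encoded protein is intact.

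Among secreted factors, the CXC chemokines that attract neutrophils, the activin genes, the urokinase PLAU and the Wnt inhibitor DKK1 stood far above background in untreated PC3 cells. Of 40 measured cytokines and chemokines, 17 (42.5%) were above background and 22 were on neither array above it, with a median of 6.39 against 6.83 for all genes. CXCL8, a neutrophil chemokine, had 13.50 and 13.25 and passed at both of its probe sets. CXCL1 had 12.82 and 12.97 and CXCL6 had 11.90 and 11.67. The related CXCL2 (9.88 and 10.16), CXCL5 (9.53 and 9.40) and CXCL3 (9.39 and 9.36) were above background, where CXCL2 and CXCL5 were read by probe sets that can match related sequences. MIF, a constitutively made cytokine, had 13.45 and 13.37.

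Inflammatory cytokines were divided. IL1B, interleukin 1β, had 11.75 and 11.35, while IL1A, its relative, had 4.41 and 3.73. IL6 had 9.90 and 10.12 and LIF, of the same cytokine family, had 9.81 and 9.78. IL18 had 10.19 and 9.99. At background were TNF (3.85 on both arrays), the monocyte chemokine CCL2 (3.93 and 3.78), the homing chemokine CXCL12 (4.92 and 4.54), and IFNG, IFNB1, IL2, IL4 and IL10. CSF1, a macrophage growth factor, had 6.69 and 6.54, below both limits by 0.11 on average. IL32 had 6.80 and 6.83, on either side of the limits of its arrays.

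Of 36 measured growth factors, 22 (61.1%) were above background. The EGF receptor ligands TGFA (10.38 and 10.34), HBEGF (10.30 and 10.31) and BTC (7.69 and 7.87) passed, and EGF itself (5.06 and 4.80), EREG and NRG1 did not. VEGFA, which drives vessel growth, had 11.20 and 11.32 and passed at all 4 probe sets, and VEGFC, of lymph vessels, had 10.51 and 10.58. The matricellular CCN1 had 12.85 and 12.86 and CCN2 had 10.32 and 10.33. PDGFC had 10.75 and 10.85. HGF, the ligand of MET, had 5.48 and 5.45, and IGF1 had 5.94 and 6.03. FGF7, at background, was a member whose untreated arrays lay 2-fold apart (3.26 and 4.28).

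Of 32 measured TGF-beta and BMP ligands and antagonists, 16 (50.0%) were above background, the share of all genes. INHBA and INHBB, the activin subunits, had 12.05 and 11.99, and 12.06 and 12.20. FST, follistatin, which binds activin, had 13.45 and 13.51 and passed at all 3 probe sets. TGFB2 had 10.36 and 10.35 and TGFB1 8.45 and 8.60. The BMP antagonist NOG, noggin, had 9.06 and 9.34. BMP4 had 8.52 and 8.57, whereas BMP2 (5.86 and 5.43), BMP6 (5.62 on both arrays) and BMP7 (6.52 and 6.63) were at background. Activin genes and their binder follistatin were therefore both above background.

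Few Wnt ligands and secreted Wnt inhibitors were above background: 7 of 31 (22.6%), with a median of 4.89 against 6.83. DKK1 had 14.01 and 13.99, and the 7 co-culture arrays ranged from 13.90 to 13.96. SOST, whose promoter is shown above, had 3.28 and 3.24, with 3.06 to 3.35 on the co-culture arrays, 3 of which came from wells with added SOST protein. DKK2, DKK3, DKK4, WIF1 and the SFRP genes were at background, so that DKK1 was the inhibitor of the list above background on both arrays, while NOTUM, an enzyme that inactivates Wnt ligands, passed on array 2 alone (6.78 and 6.94). The ligands that passed were WNT5A (9.27 and 9.38), WNT7B (8.62 and 8.68), WNT9A (8.28 and 8.50), WNT7A (7.91 and 7.74), WNT10B (7.46 on both) and WNT6 (6.93 and 6.71), the last at 1 of 4 probe sets and above the limits by 0.09 on average. WNT11, WNT4, WNT1 and the 4 R-spondin genes were at background.

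Of 16 measured bone-active secreted proteins, 5 (31.25%) were above background. EDN1, endothelin 1, which acts on osteoblasts, had 8.17 and 8.64. STC2 had 10.11 and 10.02. TNFSF11, the osteoclast factor RANKL, had 3.83 and 3.72. Its decoy receptor TNFRSF11B, osteoprotegerin, had 4.04 and 4.17. SPP1, osteopontin, had 2.86 and 2.88.

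Of 33 measured secreted proteases and inhibitors, 22 (66.7%) were above background. PLAU, urokinase, which activates plasmin, had 13.06 and 12.94 and PLAT, the tissue activator, had 11.11 and 10.86. The membrane metalloprotease MMP14 had 10.14 and 9.80 and passed at all 4 probe sets. MMP1, a collagenase, had 7.30 and 7.28. The gelatinases MMP2 (4.92 and 4.72) and MMP9 (6.24 and 6.20) and the enzymes MMP3, MMP7, MMP10 and MMP13 were at background. Of the metalloprotease inhibitors, TIMP1 (12.02 and 11.97), TIMP2 (11.70 and 11.73) and TIMP4 (7.28 and 7.44) passed and TIMP3 (6.59 and 6.21) did not.

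**Figure D3:**
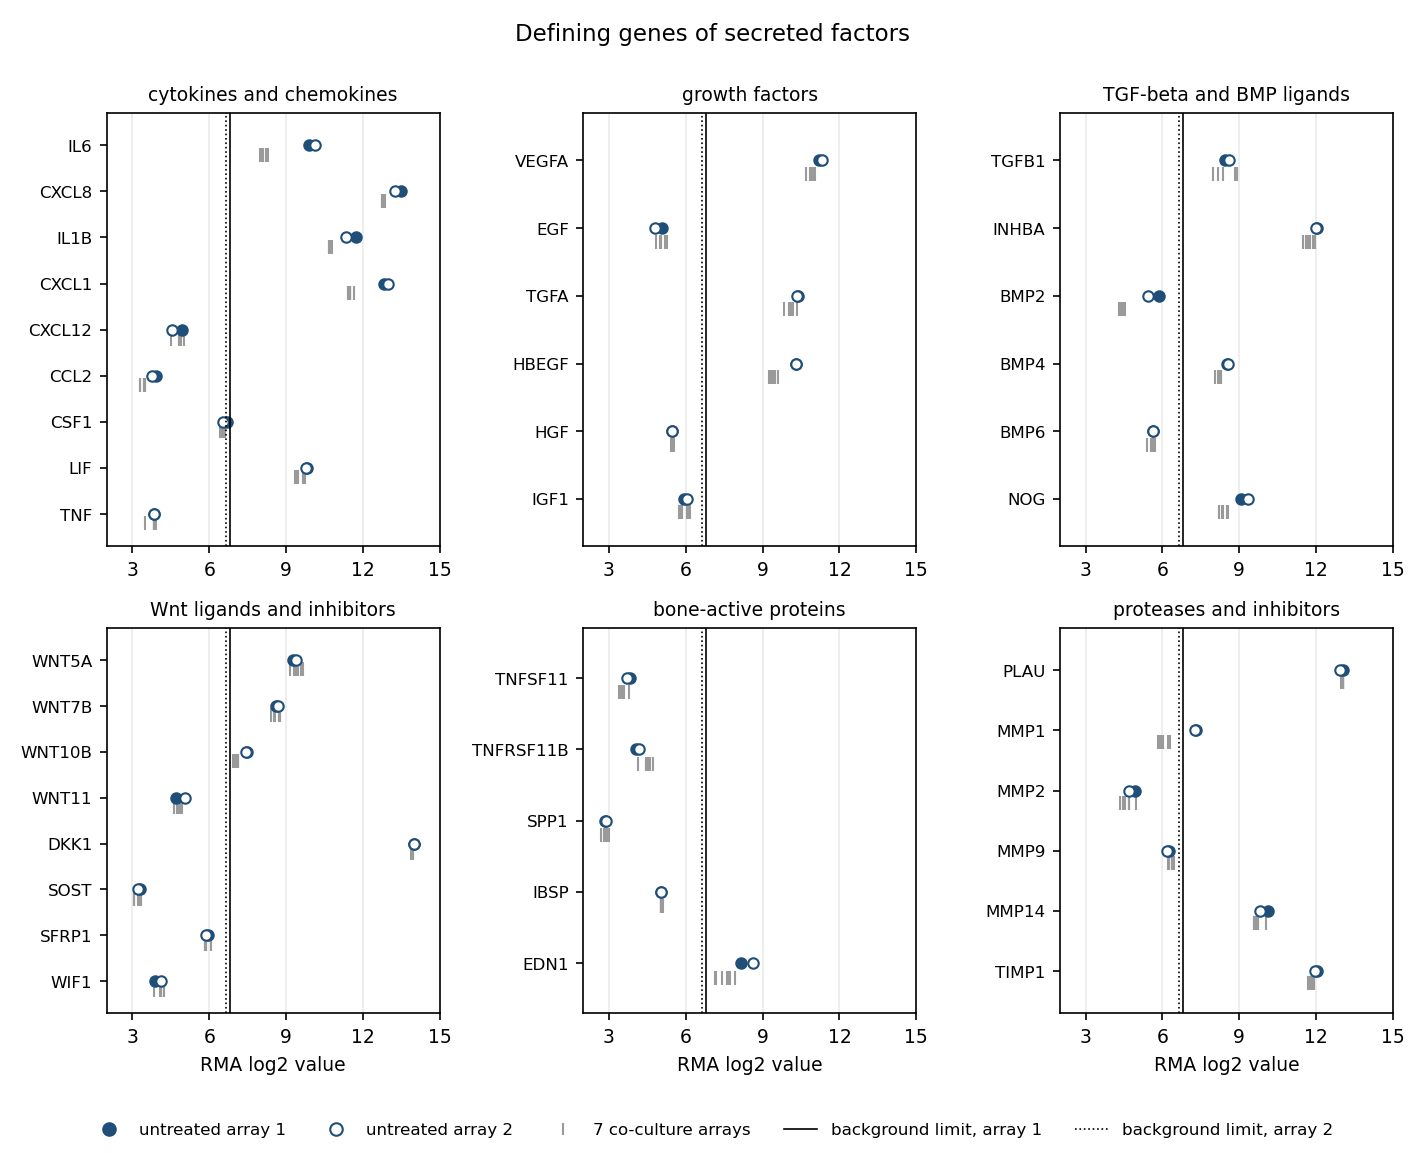
RMA log2 values (x axis) of the defining genes of 6 lists of secreted factors on untreated array 1 (filled circles) and array 2 (open circles) and on the 7 co-culture arrays (grey ticks), with the background limits of the untreated arrays as vertical lines. DKK1 lies at 14.01 and 13.99 and SOST at 3.28 and 3.24, and the co-culture ticks of IL6, CXCL1 and MMP1 lie left of the untreated circles.

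Of 41 measured receptor tyrosine kinases, 19 (46.3%) were above background. MET, the HGF receptor, had 12.62 and 12.71 and passed at 3 of 4 probe sets. AXL, the GAS6 receptor, had 12.71 and 12.60. EPHA2, an ephrin receptor, had 11.49 and 11.57. EGFR had 9.94 and 10.41, with 3 of 9 probe sets above background, and its relative ERBB2 had 8.87 and 8.86 at 1 of 3. FGFR1 passed (8.40 and 8.54), while none of the 11 probe sets of FGFR2 did and its brightest had 5.85 and 6.08. IGF1R stood at the limit with 6.86 and 6.79 at 1 of 5 probe sets. The receptors PDGFRA (6.18 and 5.63), PDGFRB (5.65 and 5.71), KIT (4.33 and 4.82) and KDR (4.03 and 4.46) were at background.

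Of 50 measured cytokine and chemokine receptors, 29 (58.0%) were above background. IL6ST, the signal chain shared by IL6 and LIF, had 11.88 and 11.84, and the specific chains IL6R (8.02 and 8.27) and LIFR (8.13 and 8.27) passed too. The receptors TNFRSF21 (12.18 and 12.02), TNFRSF12A (11.89 and 11.58) and TNFRSF10B (10.57 and 10.44), of the tumor necrosis factor family, were above background. TNFRSF11A, the receptor RANK, had 9.80 and 9.88 and passed at both probe sets. The chemokine receptors CXCR4 (5.11 and 5.12), CXCR2 (3.30 and 3.53), CXCR3, CCR1, CCR2, CCR7 and CCR10 were at background. CXCR1, a receptor for CXCL8, had 7.20 and 7.06 at its only probe set, above the limits by 0.41 on average, and was the chemokine receptor that passed. IL1R1, the IL1B receptor, had 6.27 and 6.74 and passed on array 2 alone.

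Of 13 measured TGF-beta and BMP receptors, 9 (69.2%) were above background. TGFBR2 had 10.99 and 11.04, TGFBR1 9.61 and 9.70, and BMPR2 8.74 and 8.73. ACVR1B and ACVR2A, which bind activin, had 8.93 and 8.91, and 7.73 and 7.84. Of 24 measured Wnt receptors, 15 (62.5%) passed. FZD6, a frizzled receptor, had 10.70 and 10.94, and the noncanonical receptors RYK (10.49 and 10.58) and ROR1 (10.03 and 10.04) passed, while ROR2 (3.38 and 3.42) did not. The coreceptors LRP5 (7.89 and 8.30) and LRP6 (7.67 and 7.69), through which DKK1 and SOST act, were above background, each at 1 probe set. LRP4, which binds SOST, had 6.30 and 6.17, and the stem cell receptor LGR5 had 4.21 and 4.05.

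Of 38 measured nuclear receptors, 16 (42.1%) were above background. PPARG, a fatty acid sensor, had 11.55 and 11.56 and PPARD 11.18 and 11.08. NR3C1, the glucocorticoid receptor, had 10.04 and 10.17 and VDR, the vitamin D receptor, had 9.42 and 9.56. ESR1, the estrogen receptor, had 5.99 and 5.85, with none of 9 probe sets above background, and PGR, the progesterone receptor, had 3.90 and 3.88. Of 39 G protein-coupled receptors 19 (48.7%) passed. GPRC5A (10.95 and 11.09), the prostaglandin receptor PTGER4 (10.88 and 10.93), the lysophosphatidic acid receptor LPAR1 (10.79 and 10.80) and the adenosine receptor ADORA2B (10.62 and 10.61) were above background. The endothelin receptor EDNRB had 4.11 and 4.13 and the parathyroid hormone receptor PTH1R had 6.38 and 6.12.

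Of 24 measured integrins, 10 (41.7%) were above background. ITGB1, the shared β1 chain, had 13.79 and 13.76. The collagen-binding ITGA2 had 11.87 and 11.82, the laminin-binding ITGA6 and ITGA3 (10.70 and 10.72) passed, and ITGAV had 10.99 and 10.84. Of the partners of ITGAV, ITGB5 (9.71 and 9.83) and ITGB8 (9.40 and 9.47) passed and none of the 7 probe sets of ITGB3 did (6.23 and 6.34 at the brightest). The leukocyte chains ITGAL, ITGAM and ITGAX were at background and ITGB2 had 6.66 and 6.74, on either side of the limits of its arrays.

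**Figure D4:**
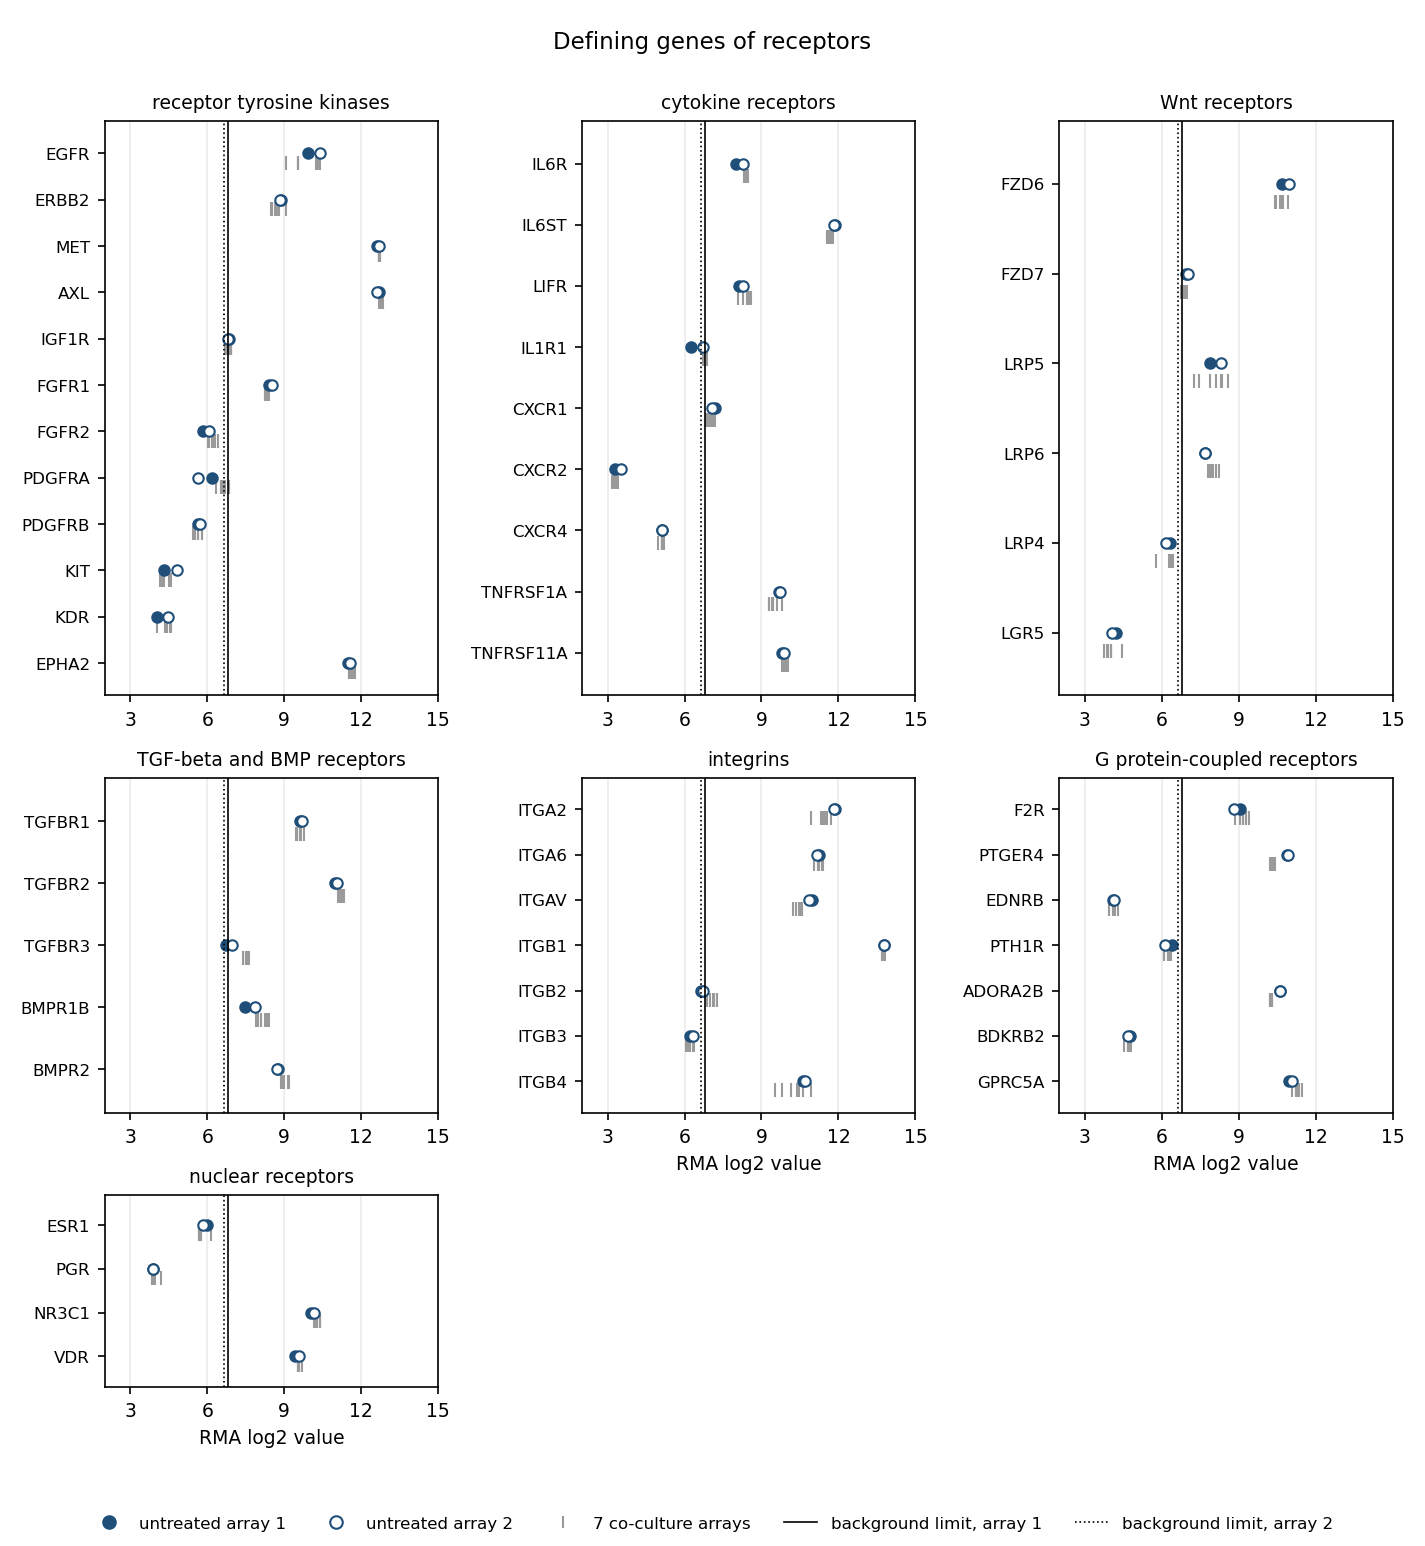
RMA log2 values (x axis) of the defining genes of 7 lists of receptors on untreated array 1 (filled circles) and array 2 (open circles) and on the 7 co-culture arrays (grey ticks), with the background limits of the untreated arrays as vertical lines. MET, AXL, IL6ST, TGFBR2 and ITGB1 lie far right of the limits, and IGF1R and CXCR1 lie close to them.

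Ligands and receptors were set side by side in 61 known pairs of the listed genes, chosen with the levels known. In 17 pairs both genes were above background on both untreated arrays. Among these were IL6 with IL6R, LIF with LIFR, TGFA and HBEGF with EGFR, GAS6 (8.29 on both arrays) with AXL, FGF2 (7.55 and 7.63) with FGFR1, INHBA with ACVR2A, WNT5A with ROR1, and DKK1 with LRP6. In 13 pairs the ligand was above background and the receptor was not, as for CXCL8 and CXCL1 with CXCR2, KITLG (9.89 and 9.83) with KIT, VEGFA with KDR, PDGFC with PDGFRA and EDN1 with EDNRB. In 16 pairs it was the receptor alone: MET without HGF, TNFRSF11A without TNFSF11, TNFRSF1A (9.69 and 9.71) without TNF, OSMR (8.97 and 9.19) without OSM, and LRP6 without SOST were among them. In 11 pairs, such as CXCL12 with CXCR4 and CSF1 with CSF1R, neither passed, and in 4 a gene passed on 1 array alone. Over all genes 50.0% were above background on both arrays and 48.1% on neither, and genes such as EGFR and LRP6 stand in several pairs. The counts of pairs are therefore a description and not a result about pairing. Transcripts of both partners do not show that a protein was secreted or bound.

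Across the lists, 270 of 544 measured genes were above background on both untreated arrays, 17 on 1 and 257 on neither. The remaining 51 of 595 listed genes had no probe set with a single gene symbol and were not analysed here. Of the 270 genes, 174 passed at most of their probe sets, and the other 96 did not. Genes with 1 of 2 probe sets above background, such as CDH1, are among the 96. The matching count over all genes is not given here. A probe set that can match related sequences stood for 41 of the 544 genes.

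The untreated arrays differed little from each other. No gene above background lay 2-fold or more apart, and 6 of all 19775 genes did. A difference of at least 0.5 was found in 85 genes above background, and 74 of them were higher on array 2. The 10 genes above background with the widest gap were SRRM2, CMIP, EME1, MALAT1, INO80D, LMO7, RIF1, SLC16A7, SART3 and UBN1, 9 of which were higher on array 2. SRRM2, a splicing factor, had 9.09 and 10.09. EME1, an endonuclease subunit, was the exception with 8.39 and 7.41. With 2 arrays, these differences have no test.

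Set against the co-cultures, the listed genes kept most of their baseline calls. Of the 270 listed genes above background on both untreated arrays, 257 were above it on all 7 co-culture arrays. Of the 257 on neither, 248 were above it on none of the 7. The same counts over all genes are not given here, so the kept calls are not read as a trait of the lists. On single co-culture arrays 49.2% to 51.8% of all genes were above the limit. PPARA, a fatty acid sensor of liver and muscle, was at background on both untreated arrays (6.73 and 6.41) and above the limit on all 7 co-culture arrays (6.97 to 7.19). MMP1 went the other way, with 7.30 and 7.28 on the untreated arrays and 5.83 to 6.31 on the co-culture arrays.

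Untreated PC3 cells were then compared with the mean of the 3 co-culture groups to see which baseline levels differ from those on the co-culture arrays. Against this mean IL6, MMP1 and the neutrophil chemokines CXCL1, CXCL2, CXCL3, CXCL5, CXCL6 and CXCL8 were higher in untreated cells, and ZEB1 and TGFBR3 were lower. Of 14868 genes tested with limma, 10.6% passed a Benjamini-Hochberg adjusted p under 0.05, 4.04% higher and 6.56% lower in untreated cells, and 0.235% passed with a fold of 2 or more. Of 433 listed genes tested, 86 (19.9%) passed, 48 higher and 38 lower, and 8 of them by 2-fold or more: IL6, CXCL1, CXCL2, CXCL3, IL23A, IL24, MMP1 and BMP2. IL6 had 9.90 and 10.12 in untreated cells and a lowest, median and highest value of 7.99, 8.10 and 8.30 in the co-cultures, so the groups did not overlap. The difference was 1.88 on the log2 scale (standard error 0.10, limma adjusted p = 0.000102). CXCL1 had 12.82 and 12.97 against 11.41 to 11.64 (difference 1.40, standard error 0.07, limma adjusted p = 0.000102). CXCL8 was higher by 0.57, CXCL6 by 0.40 and CXCL5 by 0.31. Of the 86 genes, 64 were above background on both untreated arrays, 6 on 1 and 16 on neither. Over all genes, 1149 of the 1576 that passed were above background on both untreated arrays. BMP2, among the 16 listed genes on neither, differed by 1.20 and was at background in every sample.

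Of 26 tested cytokines and chemokines, 13 were higher in untreated cells and 1, IL33, was lower, against 4.04% and 6.56% of all genes. The list's median difference was 0.28 against 0.00 for all genes tested. HBEGF, an EGF receptor ligand, was higher by 0.92, the cell cycle inhibitor CDKN1A by 0.82, NOG by 0.82 and IL13RA2, a decoy receptor for interleukin 13, by 0.75. Of 21 tested Wnt receptors none was higher and 5 were lower, FZD4, FZD5, FZD1, LRP6 and FZD2, with differences from -0.45 to -0.29. ZEB1 had 8.03 and 7.93 in untreated cells and 8.53 to 8.69 in the co-cultures (difference -0.62, limma adjusted p = 0.00158). TGFBR3, a TGF-beta coreceptor, had 6.75 and 6.95 against 7.38 to 7.64 (difference -0.68). Wnt inhibitor DKK1, with 14.01 and 13.99 against 13.90 to 13.96, was not among the genes that passed.

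The untreated arrays also differed from the co-culture arrays in preparation controls. The poly-A control RNAs, which join the sample before labelling, averaged 11.32 ± 0.48 on the 2 untreated arrays. The 7 co-culture arrays averaged 6.65 ± 0.28 (two-sided p = 0.0278 by exact permutation over arrays, as low as 2 against 7 can give). The hybridization controls, added after labelling, averaged 11.01 ± 0.48 on the untreated and 10.44 ± 0.12 on the co-culture arrays (exact permutation p = 0.0278). For ACTB the 3′ signal exceeded the 5′ signal by 0.69 ± 0.27 in untreated cells against 1.38 ± 0.33 in co-cultures, and for GAPDH by 0.19 ± 0.07 against 0.20 ± 0.10 (exact permutation p = 0.0278 and 0.917, errors are SD). The poly-A, hybridization and ACTB values on the 2 untreated arrays did not overlap those on the 7 co-culture arrays. On these arrays preparation and growth without osteoblasts therefore cannot be told apart. The part of the controls in the differences from the co-cultures was not tested. The counts also rest on few arrays: the 601 genes higher and 975 lower became 103 and 160 when untreated array 1 was left out, and 226 and 384 when untreated array 2 was. Leaving out the first rhDKK1 array gave 336 and 544, the second 351 and 545, and rhSOST array 2 gave 387 and 625. Without rhSOST array 1 the counts were 432 and 771, and without rhSOST array 3 they rose to 793 and 1183. Without OB SostKO array 1 or 2 they were 593 and 929, and 619 and 882. Of the 86 listed genes, 24 passed whichever array was left out. These were ADM, BMP2, CCN2, CDKN1A, CXCL1, CXCL2, CXCL3, CXCL8, HBEGF, IL13RA2, IL1B, IL23A, IL24, IL6, MGP, MMP1, NOG, PTGER4, S100A2, S100A4 and SLPI, all higher in untreated cells, and PDGFD, TGFBR3 and ZEB1, which were lower. The matching count over all genes that passed is not given here. Of these 24 listed genes, BMP2, MGP and PDGFD were at background on both untreated arrays and TGFBR3 passed on 1. MGP, an inhibitor of calcification, had a mean of 5.03 in untreated cells and was at background on all 7 co-culture arrays too, and PDGFD, a growth factor, had a mean of 6.19 and was above the limit on 1 of the 7. CXCL5, CXCL6, IL33 and all 5 Wnt receptors were lost without at least 1 of the arrays.

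**Figure D5:**
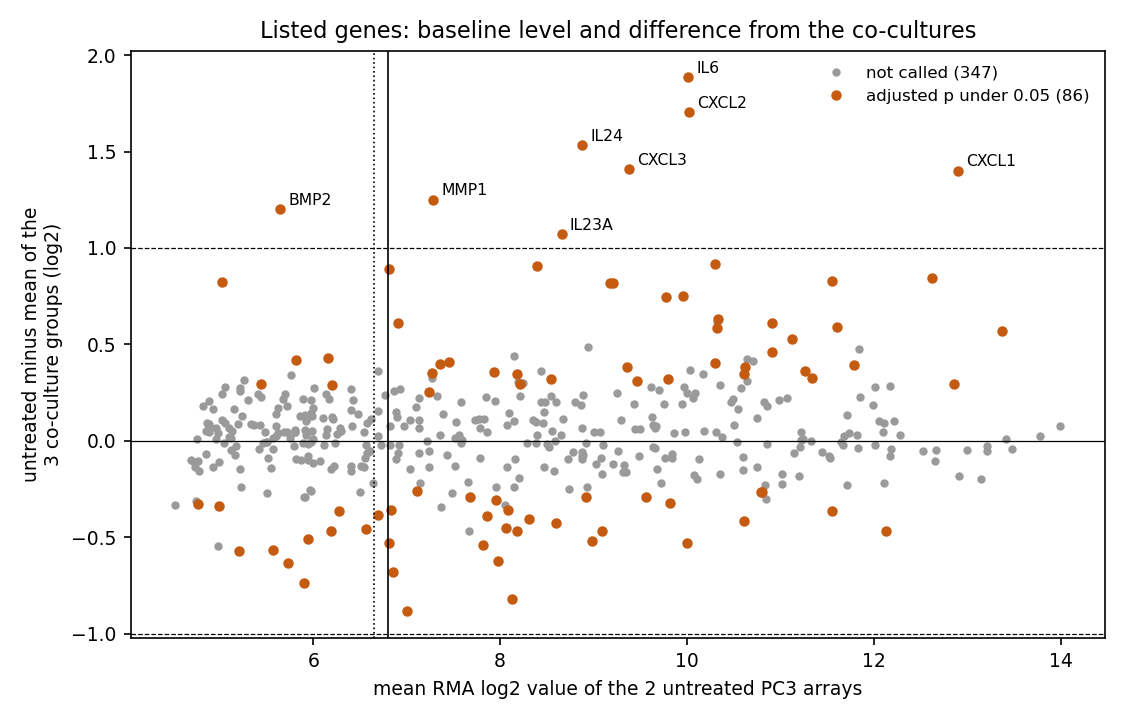
Mean RMA log2 value in untreated PC3 cells (x axis) and difference between untreated PC3 cells and the mean of the 3 co-culture groups (y axis, log2) for the 433 listed genes tested, with 86 that passed an adjusted p under 0.05 in colour, dashed lines at a 2-fold difference and the background limits as vertical lines. The 8 named genes lie above the upper dashed line and no listed gene lies below the lower one.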

How the data were processed

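The study hybridized PC3 RNA, 500 ng a sample, to 9 Affymetrix U133 Plus 2.0 arrays. The authors made the deposited log2 values with RMA, which the submitters' processing notes name without a version, and groups and replicate numbers came from the sample titles. The number of arrays limits the precision, and no detection calls were used here. Of 54675 probe sets, 62 are controls, and 41091 of the rest carry 1 gene symbol in the platform's annotation, 1801 several and 11721 none. Each of 19775 genes was represented by its brightest probe set, taken as a mean of all 9 arrays. For 448 genes another probe set was brightest on the untreated arrays. A gene was above background where its value exceeded the 95th percentile of 92 measured of 100 listed genes of other tissues on that array. The members, gene lists, ligand and receptor pairs and tests were chosen with earlier results of these data known. The genes named are, in each list, those that define it, the 3 highest, up to 3 with untreated arrays on different sides of the limit and the 3 largest changes in each direction that pass. Others complete a count, form a pair or were chosen after seeing their values.

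Untreated PC3 was compared with the mean of the 3 co-culture group means in R 4.3.3 with limma 3.58.1 (lmFit, eBayes) over 14868 genes that lay at or above the 40th percentile on 2 or more arrays, adjusted by Benjamini-Hochberg. The script was tested on simulated data, where it recovered 76.1% of changes of 1.5-fold and 97.0% of changes of 2-fold. Of its 198 calls there, 16 were false, and changes below 1.5-fold were not simulated. Control probe sets were compared by exact permutation over arrays. Deviations of same-numbered arrays from their group means had correlations from -0.32 to 0.21. In a group of 2 arrays these deviations mirror each other, so the correlations cannot settle whether same-numbered arrays belong together. The main test has no replicate block, and a block was 1 of the alternatives. Promoters are RefSeq's for GRCh38.p14. The alternatives were other background limits, other choices of probe set, cyclic loess, other filters, a replicate block, the methods' ANOVA and paired t-test, and leaving out each array. Every probe set above background and genes with 1 probe set were added after the data were seen.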

Additional observations from a re-analysis of the deposited data

How the results depend on the processing

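The share of genes above background follows the limit chosen. With the 99th percentile of the reference genes 6500 genes passed in place of 9889, and 11 growth factors, 9 TGF-beta and BMP ligands and antagonists, 3 Wnt ligands and inhibitors, 2 bone-active proteins, 12 receptor tyrosine kinases, 17 cytokine receptors, 5 TGF-beta and BMP receptors, 5 Wnt receptors and 0 endothelial genes. With the 40th percentile of all probe sets 14308 genes passed, within 1.5 times of 9889, and 10 neuroendocrine genes, 14 Wnt ligands and inhibitors, 9 bone-active proteins, 33 receptor tyrosine kinases, 30 nuclear receptors, 21 integrins, 5 osteoblast, 9 fibroblast, 4 blood and 4 endothelial genes. With the 90th percentile of the reference genes 10520 genes passed and 1 blood and immune cell gene. The mean of all probe sets gave 8419 genes, 5 TGF-beta and BMP receptors, 1 osteoblast gene and 0 endothelial genes. Plain probe sets that match 1 transcript group gave 7152 of 16788 genes, 8 mesenchymal genes, 13 growth factors, 3 bone-active proteins, 6 integrins and 1 osteoblast gene. Genes with 1 probe set passed in 33.9%. Without untreated array 1 or 2 there were 10224 and 9937 genes, and cyclic loess gave 9899. The levels of 223 named genes moved by a median of 0.06 with 1 untreated array and by 0.55 with the mean of the probe sets.

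The count of genes 2-fold apart between the untreated arrays, 0 above background, was 6 over all genes and 23 over every probe set above background, 19 of them higher on array 2. In the comparison with the co-cultures, 601 genes were higher and 975 lower in untreated PC3, and 35 passed with a fold of 2. The methods' ANOVA gave 371 and 571, and 36 and 18 of the listed genes in place of 48 and 38. The methods' paired t-test gave 0 and 0 after adjustment and 1548 genes at an unadjusted p under 0.05, against 4048 in limma. A replicate block gave 497 and 840, though the arrays share only a number. Leaving out 1 array gave 103 to 793 genes higher and 160 to 1183 lower. Of 63 named differences, 12 were lost with the replicate block, 26 with the ANOVA and 40 and 33 without untreated array 1 and 2. With the mean of the probe sets 42 of the 63 were kept, 14 were lost and 1 turned, and the others were not tested in that setting. The 1 that turned was FGFR4, from -0.31 to 0.058, and the cause was not tested. The paired t-test lost all 63 after adjustment.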
